A study of Mus musculus with 9 samples.

Results

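Polycomb group genes were examined in RNA sequencing of mouse brain, as the 10 genes *Phc1*, *Phc2*, *Phc3*, *Ring1*, *Rnf2*, *Bmi1*, *Ezh1*, *Ezh2*, *Eed* and *Suz12* among the 24421 rows of the table of read counts that the authors deposited. The set was taken by gene symbol, and it was chosen because *Phc3* was among the firmest rises after BAL101553, so the values of the 10 genes in BAL101553 against control are a description: the calls of the fit over all genes are counted there, and nothing is supported with them. All 9 libraries came from C57BL/6 mice and were taken ex vivo from brain: 3 are labelled control, 3 are labelled BAL101553, and 3 carry the treatment label BAL101553 together with the cell type label astrocytes. BAL101553 is an oral prodrug of BAL27862, which disrupts microtubules and activates the spindle assembly checkpoint. The labels call the control and BAL101553 material whole tissue, whereas the methods of the study describe sorted GFP+ cells of SB28, a mouse glioma line carrying GFP and luciferase that had been implanted in the brain of these mice, so all 6 would be samples of 1 tumor line. Those methods state fewer ex vivo samples per group than the 3 held here, and the study's data statement names another deposit, so that the sorting is taken over from the methods and not from the labels. Control mice were given vehicle, and treated mice were sacrificed later, at a matched tumor volume, so that the drug and the time of growth cannot be told apart. The text of the study does not describe the libraries labelled astrocytes, and the labels do not say how these cells were obtained. Tumor cells were implanted in mice aged 6 to 8 weeks.

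Polycomb group proteins keep genes silent through marks on histones. Polycomb repressive complex 2 (PRC2) methylates lysine 27 of histone H3 with EZH1 or EZH2 as its catalytic subunit, held in an active form by EED and SUZ12. Polycomb repressive complex 1 (PRC1) ubiquitylates histone H2A through RING1 or RNF2 paired with a PCGF protein such as BMI1, and its canonical form adds a CBX protein, which reads the methylated histone, and a polyhomeotic protein (PHC1, PHC2 or PHC3), whose SAM domain polymerizes and compacts chromatin. In brain, EZH2 is known from dividing progenitors and EZH1 from cells that have left the cell cycle.

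All 10 genes were placed on GRCm38, the build that the labels name as mm10, with the GENCODE vM21 annotation. *Phc3*, the gene that led to the choice, lies on chromosome 3 from 30899371 to 30969415 on the minus strand, with 17485 bases of exon. The 250 bases before the RefSeq start site (GRCm38.p6) are shown for *Phc3* and for both pairs of catalytic paralogs whose order turned between the tumor cells and the astrocyte-labelled libraries. They are written 5′ to 3′ on the gene's strand, in lower case, with capitals for each match to CCAAT or GGGCGG on either strand, so that ATTGG and CCGCCC are capitals too. They lie on the minus strand at chr3:30969416-30969665 for *Phc3*, chr17:34024681-34024930 for *Ring1*, chr1:151500992-151501241 for *Rnf2*, chr11:101226464-101226713 for *Ezh1* and chr6:47595031-47595280 for *Ezh2*.
Phc3: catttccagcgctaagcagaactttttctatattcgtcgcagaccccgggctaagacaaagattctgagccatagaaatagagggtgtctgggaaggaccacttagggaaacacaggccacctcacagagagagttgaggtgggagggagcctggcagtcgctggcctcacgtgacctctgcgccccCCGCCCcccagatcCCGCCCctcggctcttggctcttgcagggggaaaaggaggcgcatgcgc
Ring1: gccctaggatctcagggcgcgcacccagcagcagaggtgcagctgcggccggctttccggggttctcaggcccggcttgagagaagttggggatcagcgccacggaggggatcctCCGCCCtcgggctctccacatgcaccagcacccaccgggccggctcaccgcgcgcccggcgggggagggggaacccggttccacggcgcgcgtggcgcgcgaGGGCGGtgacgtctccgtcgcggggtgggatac
Rnf2: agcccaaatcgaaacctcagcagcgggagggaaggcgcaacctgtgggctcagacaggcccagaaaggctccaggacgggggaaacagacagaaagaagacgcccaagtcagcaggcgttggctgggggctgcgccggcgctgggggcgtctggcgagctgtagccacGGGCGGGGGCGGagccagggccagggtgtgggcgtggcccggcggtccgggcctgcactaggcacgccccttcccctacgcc
Ezh1: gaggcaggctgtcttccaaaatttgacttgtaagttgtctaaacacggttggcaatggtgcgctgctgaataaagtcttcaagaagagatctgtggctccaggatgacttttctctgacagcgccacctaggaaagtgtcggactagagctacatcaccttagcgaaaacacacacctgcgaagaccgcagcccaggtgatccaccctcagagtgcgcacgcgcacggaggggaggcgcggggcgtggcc
Ezh2: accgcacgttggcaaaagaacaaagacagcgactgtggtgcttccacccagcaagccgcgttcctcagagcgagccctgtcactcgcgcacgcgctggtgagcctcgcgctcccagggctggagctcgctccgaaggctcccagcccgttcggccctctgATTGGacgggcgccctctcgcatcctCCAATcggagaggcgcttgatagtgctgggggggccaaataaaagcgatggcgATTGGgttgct
CCAAT, the letters bound by NF-Y, had 3 matches before *Ezh2* and 0 before *Ezh1*, and 33.8% of 32851 promoters of this length held it. GGGCGG, a box bound by SP1, had 2 matches before each of *Phc3*, *Ring1* and *Rnf2* and 0 before both *Ezh* genes, and 32.7% of the promoters held it. CpG dinucleotides numbered 12 before *Phc3*, 30 before *Ring1*, 20 before *Rnf2*, 14 before *Ezh1* and 23 before *Ezh2*, against a median of 6 over all promoters. Of 2 further motifs searched on both strands, TTTNNCGC, a part of the E2F site, was found before *Suz12* alone among the 10 genes and in 4.28% of all promoters, and CCATNTT, the core of the YY1 site, before *Bmi1* alone and in 12.4%. None of these motifs overlaps another in the sequences shown. The matches are letters in a window, and binding was not measured.

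Between 24540452 and 28761388 reads were counted in the control libraries, between 26667789 and 34013875 in the BAL101553 libraries and between 22919523 and 29230743 in those labelled astrocytes. Levels below are CPM, the reads of a gene relative to all reads of its library, scaled over all 9 libraries by the trimmed mean of M-values (TMM). Nothing in the labels says that libraries came from separate mice, so p-values measure the spread between libraries, which may be technical. In the tumor cell libraries the 6 oligodendrocyte genes examined summed to 15.1 to 20.5 CPM, the 8 genes of microglia and macrophages to 2.12 to 4.96 CPM and 5 neuronal genes to 14.0 to 34.0 CPM, whereas 7 astrocyte markers reached 671 to 965 CPM, mostly from *Gja1*, and 4 endothelial genes 510 to 850 CPM, mostly from *Cdh5*. Of the neuronal genes there, *Stmn2* reached 29.6, *Gad1* 6.45, *Syt1* 1.03 and *Snap25* 0.338 CPM, and *Rbfox3* had 0 reads. In the astrocyte-labelled libraries the astrocyte markers summed to 12078 to 14842 CPM, but the oligodendrocyte genes also reached 10498 to 13039 CPM and the microglial genes 490 to 1068 CPM. The endothelial genes summed to 146 to 170 CPM and the neuronal genes to 12.8 to 14.9 CPM. *Cldn5* and *Pecam1* averaged 62.7 and 24.1 CPM, against at most 1.45 and 1.19 CPM in the tumor cell libraries. *Flt1* and *Cdh5* averaged 51.7 and 20.5 CPM, against at most 69.7 and 815 CPM. The libraries labelled astrocytes are therefore called astrocyte-labelled, and the part of the other cell types in each difference below was not tested. In such bulk RNA, fewer cells of a type and less RNA per cell cannot be told apart.

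Of the polyhomeotic genes, *Phc2* and *Phc3* had BAL101553 and control libraries that stood apart, and *Phc1* did not. Of all 12633 genes tested, 39.7% stood apart in this way. *Phc3* was at 39.0, 40.5 and 38.1 CPM in the controls, at 76.2, 72.6 and 68.7 CPM with BAL101553, and at 87.9, 94.4 and 74.8 CPM in the astrocyte-labelled libraries. Every BAL101553 library was above every control, and the BAL101553 and astrocyte-labelled ranges overlapped. *Phc2*, the most abundant of the 3, was at 354, 387 and 378 CPM in the controls, 283, 244 and 267 CPM with BAL101553 and 151, 159 and 142 CPM in the astrocyte-labelled libraries. Its groups did not overlap, and the order was opposite to that of *Phc3*. *Phc1* was at 35.6, 41.2 and 39.7 CPM in the controls and 38.7, 34.3 and 44.6 CPM with BAL101553, which overlapped, and at 112, 112 and 96.6 CPM in the astrocyte-labelled libraries, above all others.

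**Figure D1:**
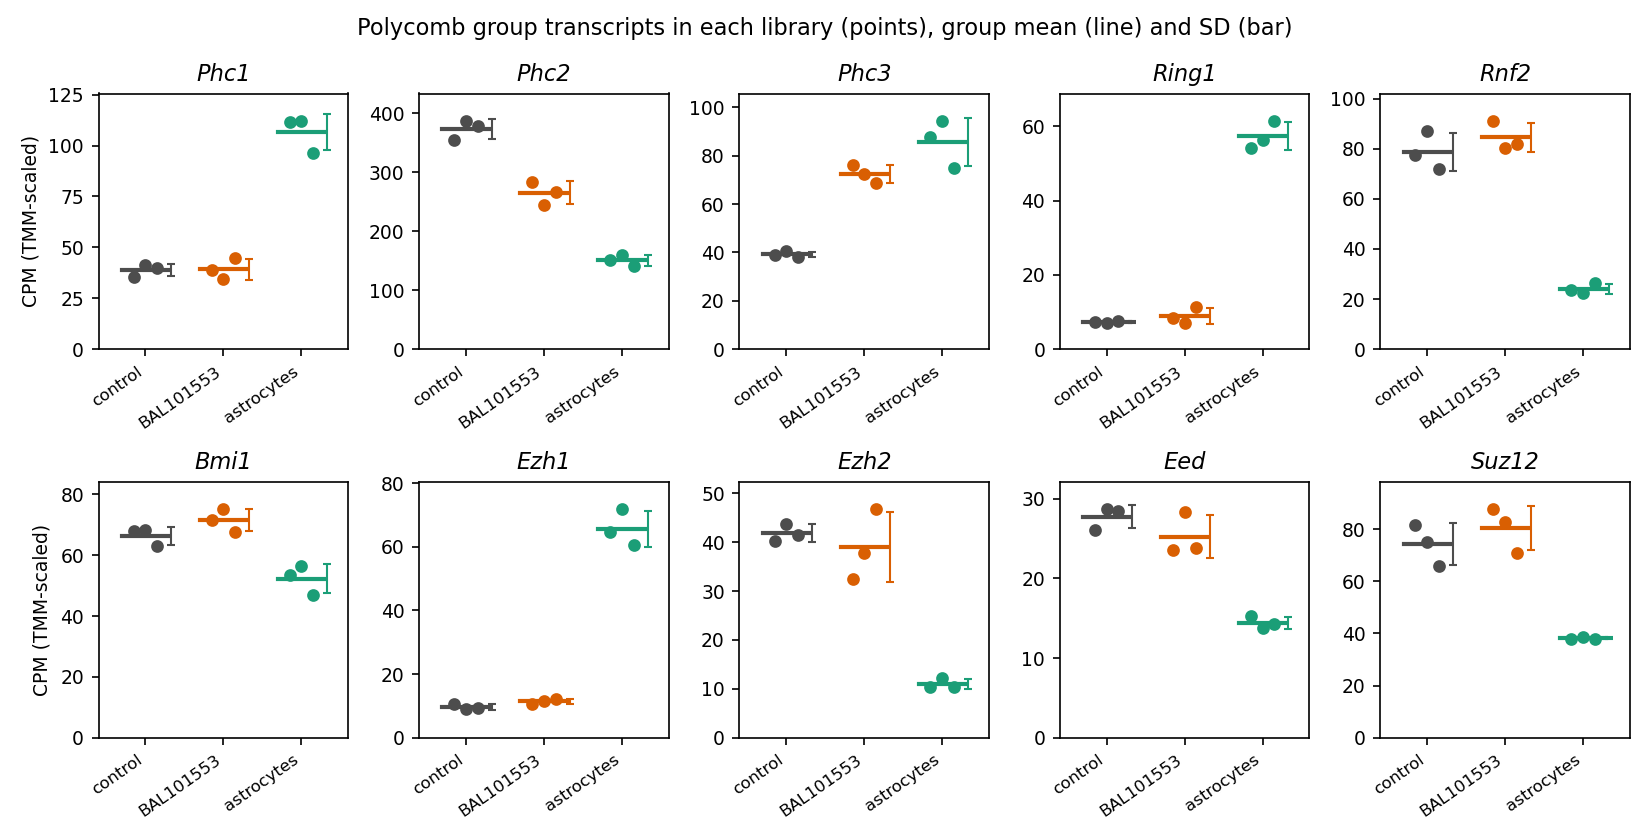
Level of each of the 10 genes in CPM (TMM-scaled, linear axes from 0) in the 3 control, 3 BAL101553 and 3 astrocyte-labelled libraries. Points are libraries, horizontal lines are group means and bars are the SD (n = 3). Only *Phc2* and *Phc3* have control and BAL101553 points that do not overlap, as had 39.7% of the 12633 genes tested. *Phc3* is at 38.1 to 40.5 CPM in controls and 68.7 to 76.2 CPM with BAL101553.

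The ligase genes of PRC1 overlapped between the tumor cell groups and stood apart in the astrocyte-labelled libraries. *Ring1* was at 7.33, 7.00 and 7.63 CPM in the controls and at 8.54, 7.00 and 11.4 CPM with BAL101553. In the astrocyte-labelled libraries it was at 54.2, 56.4 and 61.5 CPM, far above the other 6. *Rnf2*, which encodes the other ligase, went the other way, from 77.4, 87.1 and 72.0 CPM in the controls and 91.1, 80.4 and 82.0 CPM with BAL101553 to 23.4, 22.2 and 26.4 CPM. *Bmi1*, the PCGF partner, varied least, with 62.9 to 68.2 CPM in controls, 67.7 to 75.1 CPM with BAL101553 and 47.0 to 56.3 CPM in the astrocyte-labelled libraries. Of the 50-base windows of *Bmi1* exons, 16.7% also occur in *Gm5946* or *AC114652.1*, so its counts are uncertain to that extent. Such shared windows made up 5.82% of *Eed*, 2.6% of *Suz12*, 2.59% of *Rnf2* and 1.11% of *Ezh2*, and 0% of the *Phc* genes and *Ring1*.

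In PRC2, the catalytic genes also went in opposite directions. *Ezh1* was at 10.6, 8.93 and 9.38 CPM in the controls, 10.6, 11.5 and 12.2 CPM with BAL101553 and 64.5, 71.8 and 60.5 CPM in the astrocyte-labelled libraries. *Ezh2* was at 40.2, 43.8 and 41.5 CPM in the controls, 32.5, 37.7 and 46.7 CPM with BAL101553 and 10.3, 12.1 and 10.4 CPM in the astrocyte-labelled libraries. For both genes the tumor cell groups overlapped and the astrocyte-labelled libraries stood apart. *Eed* ranged from 26.1 to 28.7 CPM in controls, 23.6 to 28.4 CPM with BAL101553 and 13.8 to 15.3 CPM in the astrocyte-labelled libraries. *Suz12* ranged from 65.8 to 81.8, from 71.0 to 87.6 and from 37.8 to 38.6 CPM in the same order of groups. The 12 dividing-cell genes examined summed to 1351 to 1458 CPM in controls, 1235 to 1440 CPM with BAL101553 and 133 to 134 CPM in the astrocyte-labelled libraries, and their part in the level of *Ezh2* was not tested.

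Levels of different genes were compared per kilobase of exon, counting every annotated exon of a gene. The order and the family shares below depend on that length. In controls *Phc3* had 0.959 to 1.10 times the counts of *Phc1*, but 0.291 to 0.332 times per kilobase. Which transcripts of each gene were present was not tested. In control cells, *Phc2* was highest, at 52.8 ± 2.40 CPM per kb (SD, n = 3), followed by *Rnf2* at 19.1 ± 1.85, *Bmi1* at 16.7 ± 0.754 and *Suz12* at 15.02 ± 1.63 CPM per kb, the last pair overlapping. *Phc1* and *Eed* overlapped at 7.33 ± 0.551 and 7.25 ± 0.367 CPM per kb, above *Ezh2* at 6.27 ± 0.273 CPM per kb. *Ring1* and *Phc3* overlapped at 2.26 ± 0.0973 and 2.24 ± 0.0705 CPM per kb, and *Ezh1* was lowest, at 1.29 ± 0.115 CPM per kb. With BAL101553 the order of the means was kept except for *Phc3* and *Ring1*. *Phc3*, at 4.15 ± 0.212 CPM per kb, stood above *Ring1*, at 2.76 ± 0.681 CPM per kb, without overlap. *Eed* and *Ezh2*, apart in controls, overlapped with BAL101553, at 6.60 ± 0.702 and 5.84 ± 1.07 CPM per kb. In the astrocyte-labelled libraries *Phc2*, *Phc1* and *Ring1* led, at 21.3 ± 1.24, 20.2 ± 1.67 and 17.7 ± 1.15 CPM per kb, where each overlapped the next, and *Ezh2* was lowest, at 1.64 ± 0.153 CPM per kb.

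Over all groups together, the total of each family varied less than its paralogs did. Between control and BAL101553 this did not hold in each family: *Phc1* was at 7.33 and 7.40 CPM per kb, while the *Phc* sum fell. *Ring1* and *Rnf2* together came to 21.4 ± 1.75 CPM per kb in controls, 23.2 ± 1.54 with BAL101553 and 23.5 ± 1.61 in the astrocyte-labelled libraries (SD, n = 3), with overlapping ranges. *Ring1* made up 10.6% ± 1.31 and 11.9% ± 2.72 of that sum in the tumor cell groups and 75.3% ± 0.940 in the astrocyte-labelled libraries. *Ezh1* made up 17.1% ± 1.84 and 21.0% ± 1.87 of the *Ezh* sum in the tumor cell groups and 84.3% ± 0.503 in the astrocyte-labelled libraries. The *Ezh* sum itself was 7.56 ± 0.174, 7.38 ± 1.18 and 10.5 ± 0.909 CPM per kb in controls, BAL101553 and astrocyte-labelled libraries. *Phc3* made up 3.60% ± 0.164 of the *Phc* sum in controls, 8.48% ± 0.677 with BAL101553 and 10.5% ± 0.474 in the astrocyte-labelled libraries. The *Phc* sum was 62.4 ± 2.99 CPM per kb in controls and lower in each library of both other groups, at 49.0 ± 3.40 and 46.4 ± 3.41 CPM per kb, and *Phc2* held 84.7% ± 0.210 of it in controls, 76.4% ± 1.04 with BAL101553 and 46.0% ± 1.04 in the astrocyte-labelled libraries.

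**Figure D2:**
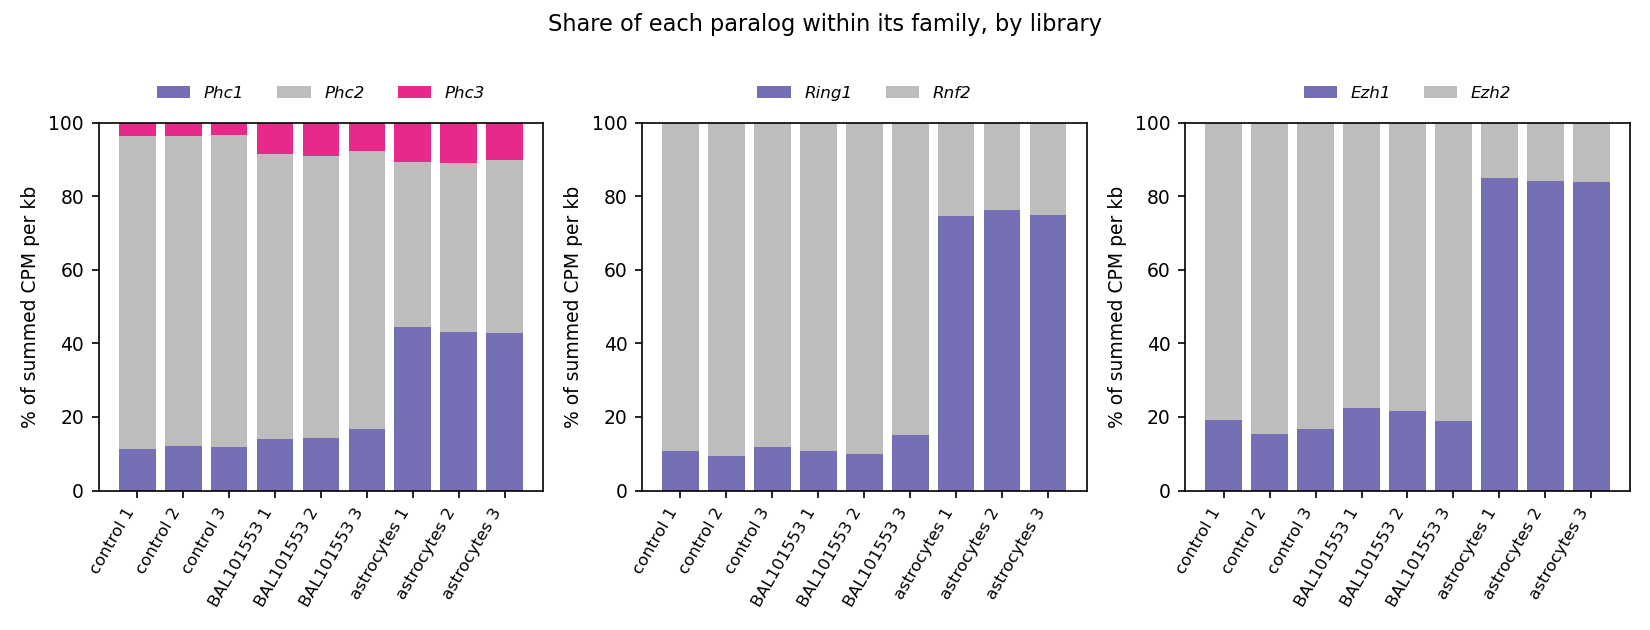
Share of each paralog in the summed CPM per kb of its family (percent, axis from 0 to 100), 1 stacked bar per library, for the *Phc*, *Ring1* and *Rnf2*, and *Ezh* families. *Ring1* and *Ezh1* take the larger share only in the 3 astrocyte-labelled libraries (75.3% and 84.3% on average), and the *Phc3* segment widens from 3.60% in controls to 8.48% with BAL101553.

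A ratio of counts within a library does not depend on the scaling between libraries. The log2 ratio of *Ezh1* to *Ezh2* was -2.12 ± 0.19 in controls, -1.76 ± 0.16 with BAL101553 and 2.58 ± 0.06 in the astrocyte-labelled libraries (SD, n = 3), and the log2 ratio of *Ring1* to *Rnf2* was -3.42 ± 0.20, -3.26 ± 0.36 and 1.26 ± 0.07. Both were higher in each astrocyte-labelled library than in any tumor cell library. The log2 ratio of *Phc1* to *Phc2* was -3.27 ± 0.04, -2.76 ± 0.16 and -0.50 ± 0.06 in the same order. For these 3 ratios the astrocyte-labelled libraries were compared with BAL101553 and with control, 6 tests in all, and each gave p = 0.1 in a two-sided exact permutation test and 0.1 after adjustment, which is the smallest p that 3 against 3 libraries allow, so this design cannot reach 0.05. As a description, the log2 ratio of *Phc3* to *Phc2* was -3.25 ± 0.06 in controls, -1.87 ± 0.11 with BAL101553 and -0.82 ± 0.09 in the astrocyte-labelled libraries, and that of *Phc3* to *Phc1* was 0.02 ± 0.10, 0.89 ± 0.24 and -0.32 ± 0.06.

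The comparison of BAL101553 with control asked how tumor cells that grew under the drug differ from those that grew without it. *Phc3* was 1.86-fold higher, a log2 fold change of 0.90 with a standard error (SE) of 0.09, and *Phc2* was lower, at -0.49 (SE 0.09). In the edgeR fit over all genes, with calls at an adjusted p under 0.05, 1 member (*Phc3*) was called higher, 1 (*Phc2*) lower and 8 were not called, where 14.7% of the 12633 genes tested were called, 8.64% higher and 6.09% lower. These 2 were also the members whose groups did not overlap, and 39.7% of all genes tested had groups that did not overlap, 20% higher and 19.7% lower. Since the set was chosen on this contrast, these counts are no test of the members. The other 8 members had log2 fold changes from -0.13 (*Eed*, SE 0.12) to 0.30 (*Ring1*, SE 0.20), with *Ezh2* at -0.09 (SE 0.14) and *Ezh1* at 0.25 (SE 0.14). The median of the 10 was 0.11, and that of all genes was 0.02. The log2 fold change lay between 0.86 and 0.93 for *Phc3* and between -0.54 and -0.43 for *Phc2* with 1 library left out, and 1 member in place of 2 was called without control 3 and without BAL101553 3.

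In this contrast fold changes moved with transcript length: with the genes divided by exon length into 4 bins of 3043, the median log2 fold change from the shortest bin to the longest was -0.13, -0.03, 0.05 and 0.13, and 5.46%, 6.34%, 8.48% and 14.6% of the genes were called higher. *Phc2*, *Phc3* and *Ezh1* are in the longest bin. With the trend in length and GC content taken out of each library, an alternative chosen after the data were seen, *Phc3* was at 0.71 (SE 0.08) and *Phc2* at -0.62 (SE 0.08).

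Between the astrocyte-labelled and BAL101553 libraries, which carry the same treatment label, 3 of the 9 members other than *Phc3* were higher and 6 lower, where 85.1% of the 15314 genes tested were called, 46.3% higher and 38.9% lower. The same 9 had groups that did not overlap, as had 87.9% of all genes tested. The comparison asked how the tumor cells differ from these brain cells of treated mice. In edgeR, with p adjusted over every gene tested by the Benjamini-Hochberg method, *Ring1* rose most, with a log2 fold change of 2.63 (SE 0.18, adjusted p = 3.24e-06), followed by *Ezh1* at 2.49 (SE 0.11, adjusted p = 2.83e-07) and *Phc1* at 1.41 (SE 0.12, adjusted p = 1.21e-05). Their paralogs fell in the same edgeR fit, *Ezh2* at -1.87 (SE 0.16, adjusted p = 1.1e-05), *Rnf2* at -1.85 (SE 0.10, adjusted p = 8.64e-07) and *Phc2* at -0.85 (SE 0.10, adjusted p = 5.99e-05). The noncatalytic PRC2 genes also fell, *Suz12* by 1.11 (SE 0.10) and *Eed* by 0.84 (SE 0.11) on the log2 scale, with adjusted p of 1.07e-05 and 0.000184 in edgeR, as did *Bmi1*, by 0.49 (SE 0.09, edgeR adjusted p = 0.00121). The median of the 10 members was -0.66 and that of all genes tested 0.18. *Phc3* had a log2 fold change of 0.21 (SE 0.10), which is given without a test, since the choice of this gene rested on the BAL101553 libraries, and the groups overlapped. Scaling by library totals moved the median of all genes to 0.39 and by upper quartiles to 0.36, and the 9 calls held under each scaling.

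The astrocyte-labelled libraries were also set against the controls, and this comparison shares its libraries with both others. *Ring1*, *Ezh1*, *Phc1* and *Phc3* were higher, at log2 fold changes of 2.93, 2.73, 1.42 and 1.09, the last as a description. *Ezh2*, *Rnf2*, *Phc2*, *Suz12*, *Eed* and *Bmi1* were lower, at -1.98, -1.76, -1.35, -1.01, -0.99 and -0.39. With all 9 members other than *Phc3* past the threshold in edgeR's quasi-likelihood test, 3 higher and 6 lower, the background was 88.3% of 15207 genes tested, 48.8% higher and 39.5% lower. All 10 had groups that did not overlap, 4 higher and 6 lower, as had 89.8% of the genes tested, 50.4% higher and 39.4% lower. The call of *Bmi1* (adjusted p = 0.00288 in edgeR) depended on the scaling: it was at -0.08 (adjusted p = 0.365) with library totals and -0.19 (adjusted p = 0.0643) with upper quartiles.

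**Figure D3:**
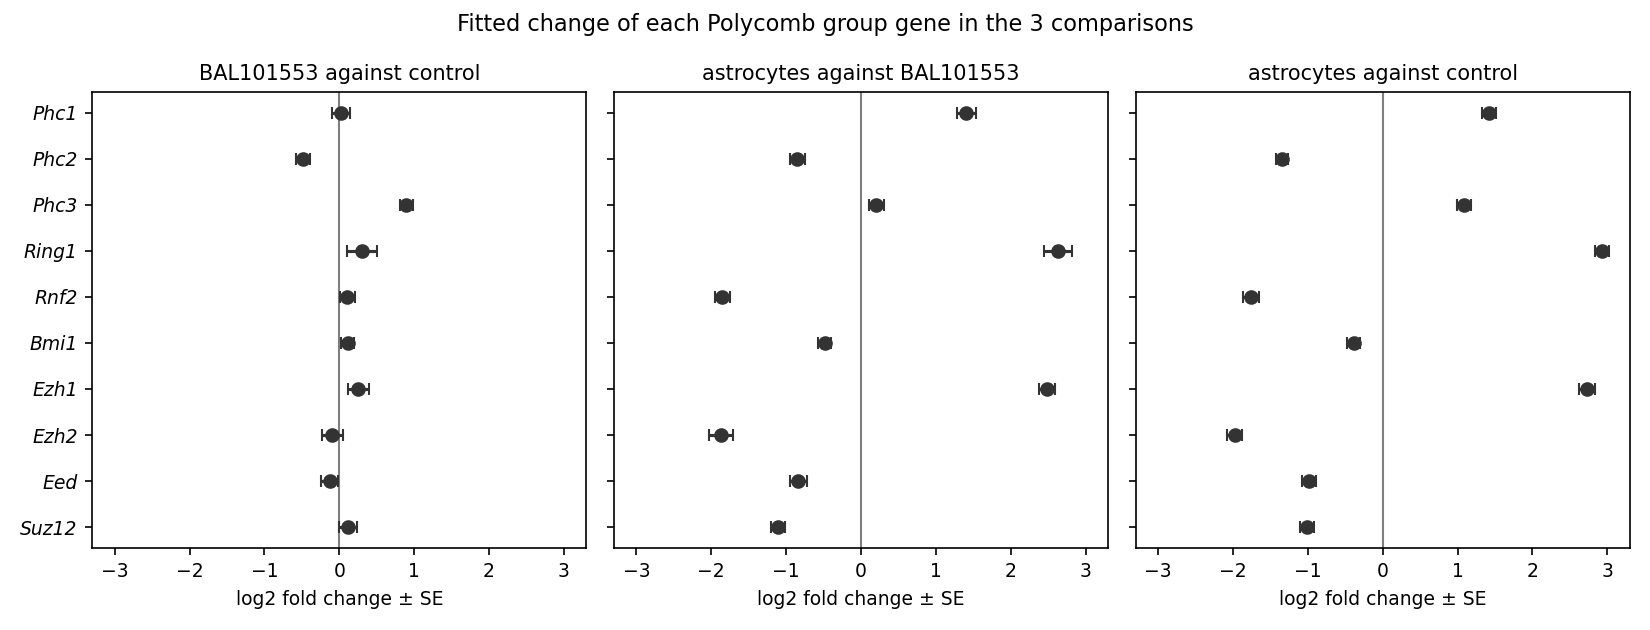
Fitted log2 fold change of each gene with its standard error in the 3 comparisons, which share libraries. In BAL101553 against control 8 of 10 genes lie between -0.13 and 0.30, *Phc3* is at 0.90 and *Phc2* at -0.49, while in both comparisons of the astrocyte-labelled libraries *Ring1*, *Ezh1* and *Phc1* lie to the right of 0 and *Ezh2*, *Rnf2*, *Phc2*, *Suz12*, *Eed* and *Bmi1* to the left.

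The other genes of the pathway were read from 7 lists with 105 genes, of which 67 passed the filter on low counts. In BAL101553 against control, 15 of the 67 rose and 1 fell in edgeR's quasi-likelihood test, with a median log2 fold change of 0.19 against 0.02 for all genes, against the background of 8.64% called higher and 6.09% called lower. In the longest length bin 14.6% of all genes were called higher. With the length and GC trend taken out, 10 rose and 3 fell, of which 11 were among the 16. In that fit 874 of 12172 genes were called higher and 634 lower. The count was 6 without control 1, 5 without control 3, 10 without BAL101553 1 and 9 without BAL101553 3. Over all genes, 458, 193, 1133 and 668 were called in the same fits, in place of 1860. By list, 1 of 8 canonical PRC1 partners rose, 1 of 14 variant PRC1 genes and 2 of 9 PRC2 partners. So did 4 of 13 genes of the PR-DUB deubiquitinase and PhoRC and 2 of 4 erasers of the Polycomb marks. Of 15 trithorax and COMPASS genes 5 rose and 1 fell. That list holds antagonists of Polycomb silencing, but its *Kdm5a*, *Kdm5b* and *Kdm5c* are not counted as such. Of the list of known Polycomb targets 4 of 42 genes were tested, and 0 were called in edgeR and in limma. The imprinted cell cycle inhibitor gene *Cdkn1c*, named after its value was seen, was the 1 target with an unadjusted p under 0.05 in edgeR (log2 fold change 1.10, SE 0.46, adjusted p = 0.137) and the 1 called by DESeq2. It was at 8.09, 11.02 and 11.9 CPM in controls and 12.2, 40.9 and 13.1 CPM with BAL101553, and without BAL101553 2 its log2 fold change was 0.29 (SE 0.19, edgeR adjusted p = 0.33).

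*Cbx7*, the CBX subunit that binds methylated lysine 27 in canonical PRC1, had the largest rise of the lists. It was at 2.50, 2.53 and 2.38 CPM in controls, 6.95, 12.3 and 9.55 CPM with BAL101553 and 73.4, 83.9 and 75.8 CPM in the astrocyte-labelled libraries, without overlap between groups. Its log2 fold change was 1.96 (SE 0.24, edgeR adjusted p = 0.00728), and it stayed called without any single library. In PRC2, *Phf1*, a Polycomb-like protein that helps to recruit the complex, went from 20.3, 18.6 and 21.4 CPM to 41.0, 32.0 and 38.0 CPM, at 0.89 (SE 0.13, edgeR adjusted p = 0.00934). *Aebp2*, a DNA-binding cofactor of PRC2, went from 29.9, 34.1 and 31.0 CPM to 48.7, 47.8 and 44.1 CPM, at 0.57 (SE 0.10, edgeR adjusted p = 0.0144). Both had every BAL101553 library above every control, and the call of *Aebp2* was lost without control 1 and without control 3.

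Among the genes of PR-DUB and its cofactors, *Ogt*, the O-GlcNAc transferase, rose from 65.8, 72.0 and 68.5 CPM to 118, 156 and 127 CPM, a log2 fold change of 0.96 (SE 0.12, edgeR adjusted p = 0.00728). *Mbd5*, *Mbd6* and *Asxl2*, which encode subunits or binding partners of this deubiquitinase, rose by 0.77 (SE 0.14), 0.65 (SE 0.12) and 0.55 (SE 0.14), with adjusted p of 0.0172, 0.0172 and 0.0377 in edgeR. The erasers that rose were *Mysm1*, a deubiquitinase of histone H2A, at 0.59 (SE 0.12, edgeR adjusted p = 0.0237), and *Kdm6b*, a demethylase of lysine 27, at 0.30 (SE 0.08, edgeR adjusted p = 0.0401). In the trithorax and COMPASS list, the methyltransferase gene *Kmt2d* rose from 93.6, 120 and 98.1 CPM to 234, 189 and 218 CPM. The methyltransferase gene *Kmt2a* rose from 91.9, 119.1 and 93.9 CPM to 191, 202 and 187 CPM. Their log2 fold changes were 1.05 (SE 0.13) and 0.93 (SE 0.12), each with an edgeR adjusted p of 0.00728. *Kmt2c*, *Setd1b* and *Setd1a* rose by 0.69 (SE 0.11), 0.57 (SE 0.14) and 0.40 (SE 0.09), with adjusted p of 0.0110, 0.0354 and 0.0315 in edgeR. *Ash2l*, a core subunit that these methyltransferases share, was the 1 gene that fell, from 90.4, 97.0 and 96.7 CPM to 68.6, 77.8 and 74.6 CPM (log2 fold change -0.36, SE 0.09, edgeR adjusted p = 0.0347). With 1 library left out in turn, *Ogt*, *Kmt2a* and *Kmt2d* were called in 6 of 6 fits and *Kmt2c* in 5, all but that without control 3. *Mbd5* and *Mbd6* were called in 4, all but those without control 1 or control 3. *Mysm1* and *Setd1b* were called in 2, those without control 2 or BAL101553 2, and *Asxl2* (without control 2), *Kdm6b* and *Ash2l* (without BAL101553 2) and *Setd1a* (without BAL101553 1) in 1 of 6. With the length and GC trend removed, *Asxl2*, *Kdm6b*, *Setd1a* and *Setd1b* were no longer called.

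**Figure D4:**
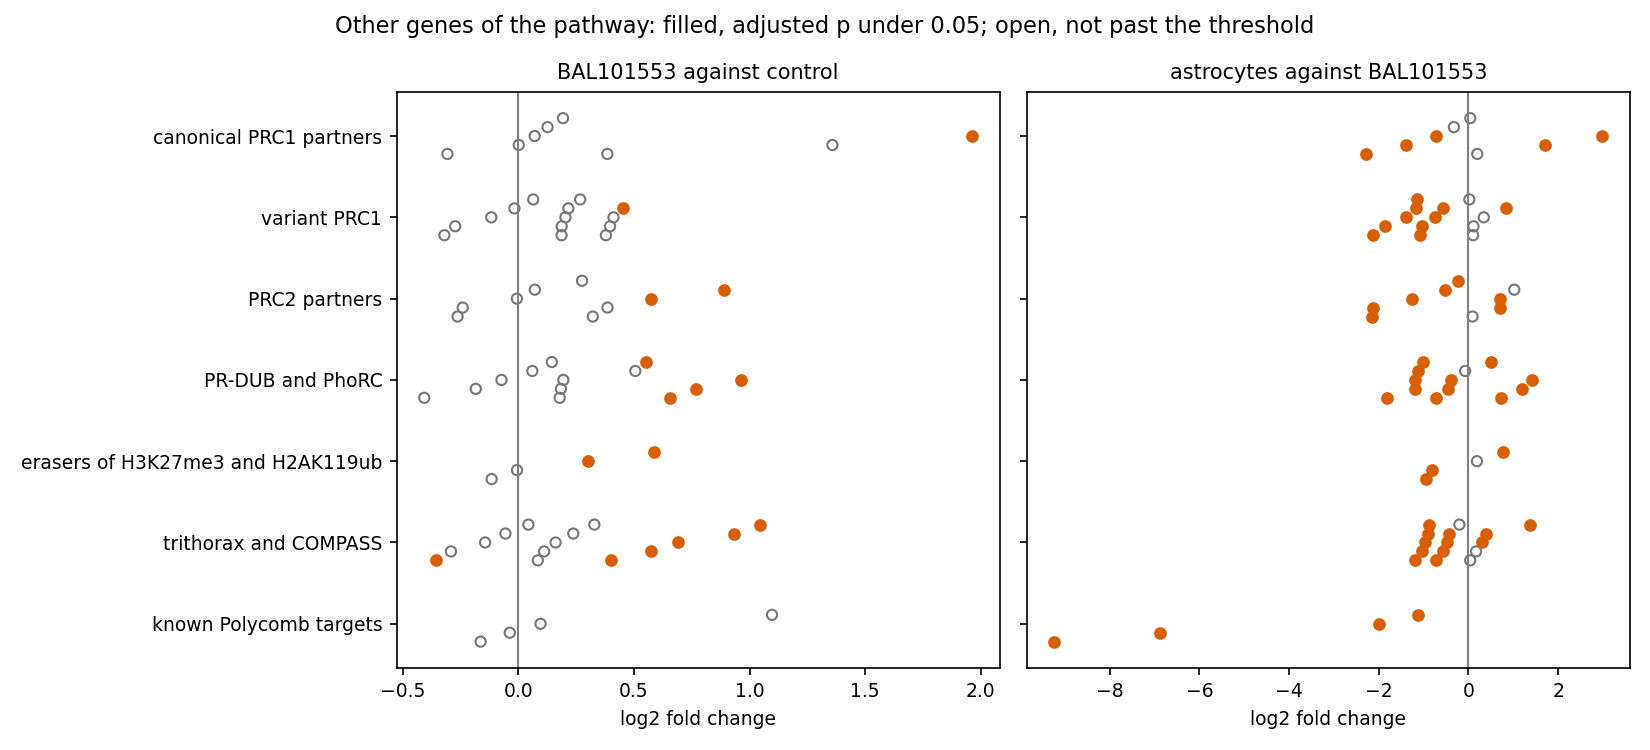
Log2 fold change of the 67 tested pathway genes by list, in BAL101553 against control and in the astrocyte-labelled libraries against BAL101553 (different scales). Filled points passed an adjusted p of 0.05 in edgeR's quasi-likelihood test and open points did not. In the left panel 15 of 16 filled points lie to the right of 0, and in the right panel 40 of 53 lie to the left. Of all genes tested, 8.64% were called higher and 6.09% lower in the left comparison. In the right comparison 46.3% were called higher and 38.9% lower.

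In the astrocyte-labelled libraries against BAL101553, 13 of the 67 pathway genes rose, 40 fell and 14 were not called in edgeR's test, with a median of -0.57, where 46.3% of all genes tested were called higher and 38.9% lower. The largest rise was that of *Cbx7* at 2.99 (SE 0.19, edgeR adjusted p = 1.91e-06). Among the other rises were those of *Asxl3* at 1.42 (SE 0.37, edgeR adjusted p = 0.00698), *Kmt2c* at 1.37 (SE 0.11), *Ogt* at 1.19 (SE 0.11) and *Auts2*, of a variant PRC1, at 0.84 (SE 0.13). The largest falls were those of *Cdkn2a* and *Cdkn2b*, cell cycle inhibitors and textbook targets of Polycomb silencing. *Cdkn2a* had 9375 to 14605 reads in each BAL101553 library, 7273 to 11750 in each control and 7, 4 and 44 in the astrocyte-labelled libraries. *Cdkn2b* had 3252 to 5519, 2684 to 3828, and 26, 43 and 40 reads. Their log2 fold changes were -9.23 (SE 0.58) and -6.87 (SE 0.23), with adjusted p of 1.85e-06 and 7.19e-08 in edgeR. The value of *Cdkn2a* rested on astrocyte-labelled library 3: it was at -11.03 without it and between -9.29 and -8.75 without any 1 of the other libraries. Next came *Pcgf2* at -2.29 (SE 0.12), the paralog of *Bmi1*, then *Phf19* at -2.15 (SE 0.27), *Pcgf3* at -2.14 (SE 0.09) and *Rbbp7* at -2.13 (SE 0.13), the last a histone-binding subunit of PRC2. Of the 39 *Hox* genes among the targets, 29 had 0 reads in all 9 libraries and 36 had at most 3 reads in any library.

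The genes whose levels most resembled those of *Phc3* were ranked by Pearson's r of log2 CPM over the 9 libraries among 15408 genes, a description in which the points share libraries and groups. *Aebp2* came first at 0.991, followed by *Msantd2* at 0.988, *2610005L07Rik* and *Prpf4b* at 0.987 and *2210018M11Rik* at 0.985. *Prpf4b*, a kinase of the splicing machinery, was at 51.4 to 54.9 CPM in controls, 70.8 to 80.4 CPM with BAL101553 and 82.5 to 93.4 CPM in the astrocyte-labelled libraries. For *Ezh2* the ranking gave *Mtpap* at 0.997, *Ttpal* at 0.996, *Ptprn* and *Pold1* at 0.995 and *Snx2* at 0.994. *Pold1*, the catalytic subunit of DNA polymerase delta, was at 41.5 to 48.1 CPM in controls, 40.3 to 50.8 CPM with BAL101553 and 16.7 to 18.8 CPM in the astrocyte-labelled libraries.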

How the data were processed

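RNA from 9 libraries was sequenced by the authors, who per the labels used TopHat, HTSeq 0.6.1 and mm10 and per their methods stranded libraries. The deposited values are raw counts of reads for each gene. The gene annotation and the treatment of shared reads are not given in the sources used here. The tests were run with edgeR 4.0.16 under R 4.3.3 (filterByExpr, TMM, quasi-likelihood test, two-sided), on the groups compared alone, with Benjamini-Hochberg adjustment over all genes and a threshold of 0.05. SEs were obtained from the fold change and the F statistic. Ratios of counts used a pseudocount of 0.5. Alternatives were limma 3.58.1, DESeq2 1.42.0, other scalings and filters, all 9 libraries in one model, the replicate number as a block, libraries left out and removal of the length and GC trend. The members and lists were chosen with earlier results of these data known. The genes named were the 10 members, up to 15 called pathway genes by smallest adjusted p in BAL101553 against control, the 6 largest rises and 6 largest falls without overlap in the astrocyte-labelled comparison, and the 5 genes most like *Phc3* and *Ezh2*; a gene that this rule names is not reported here. The sequences shown were chosen after the levels were seen. On simulated data for BAL101553 against control, with 200 genes changed 2-fold, edgeR recovered 133 with 5 false calls among 12515 genes tested. On the same data DESeq2, which called *Cdkn1c*, recovered 152 with 38 false calls, and limma 130 with 6. The simulated libraries held no length trend and fewer changed genes than the 1860 called in the real contrast. These figures therefore need not hold for the real libraries.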

Additional observations from a re-analysis of the deposited data

How the results depend on the processing

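In BAL101553 against control the number of members called was 2 in every alternative except those that left out libraries, where it lay between 0 and 2, and the number of pathway genes called, 16 in the report, lay between 0 and 15 there and between 12 and 22 in the others. At *Phc3* the log2 fold change lay between 0.71 and 0.98 over 25 alternatives, and at *Phc2* between -0.62 and -0.40. Over all genes the calls fell from 1860 to 193 without control 3, 458 without control 1, 668 without BAL101553 3 and 1133 without BAL101553 1, and rose to 2832 with DESeq2 and 3022 with all 9 libraries in one model. Library totals moved the share of higher calls from 58.7% to 77.4%. The log2 ratio of *Ring1* to *Rnf2*, 0.16 higher with BAL101553 than in control, was between -0.0433 (without BAL101553 3) and 0.29 with 1 library left out. The counts of members and pathway genes called for the astrocyte-labelled libraries stayed within 1.5 times under all 15 alternatives. Against BAL101553 the log2 fold change of *Phc3* lay between 0.13 and 0.43. The causes were not tested. The labels share replicate numbers, but same-numbered control and BAL101553 libraries correlated at 0.14, 0.01 and 0.15 in their deviations from the group means and not every library correlated best with its own number, so the numbers were not taken as pairs. With the replicate block, 2 members, 12 pathway genes and 1371 genes in all were called in BAL101553 against control.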
